A study of Olea europaea with 24 samples.

Results

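The alpha-amylases of the olive branch transcriptome are the 5 rows of the deposited count table whose name begins with aamylase, out of 50663 rows. They are named aamylase1 to aamylase5. All 5 passed the filter on low counts, as did 29107 rows in total. The study took branches of 6 olive trees (Olea europaea) and sequenced their polyadenylated RNA on 4 days, 7 May, 23 May, 6 June and 29 July, for 24 libraries, one per tree and day. The last 3 days lay 16, 30 and 83 days after the first. By its title, the study addresses the use of carbon reserves during heat, drought and recovery. Trees 3, 9 and 11 were watered and trees 4, 8 and 12 were dried, which makes 8 groups of 3 trees. Growth irrigation was given as 1.2 litres a day. Dried trees received 1 litre a week for 2 weeks and no water for 2 further weeks, and the labels do not tie those weeks to the sampling days. No cultivar, tree age or genotype is given in the sources used here, and 1 tree stands for each replicate number throughout.

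Alpha-amylases are enzymes that cut the alpha-1,4 bonds inside starch chains and so release shorter linear and branched glucans. Beta-amylases work from the chain ends and release maltose. In Arabidopsis, alpha-amylases occur in plastids, in the cytosol and as secreted proteins, leaf starch breakdown at night proceeds without the plastid form, and that form acts with a beta-amylase in guard cells and in leaves under osmotic stress. In cereal grains, alpha-amylases secreted from the aleurone break down endosperm starch under gibberellin control. Woody plants keep starch in the parenchyma of their branches as a reserve of carbon. The names of the 5 olive rows do not say which of these forms each row is, and no sequence or coordinate of the rows was used here.

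Values below are expected counts, the estimate of reads per row that the authors deposited, or levels in log2 CPM (counts per 1000000 counts) scaled by TMM, a factor that sets most rows of different libraries equal. Total counts ranged from 6675360 to 14122826 per library. The effective library size, which is the total multiplied by the TMM factor, had a much wider range, from 1663225 for dried tree 4 on 6 June to 26890237 for watered tree 3 on the same day. The totals of these 2 libraries were 11929491 and 10663202 and their TMM factors 0.140 and 2.53. The range of effective size thus came mostly from the factors and not from sequencing depth. A floor of 3 counts stood at 0.112 CPM in the library of largest and 1.80 CPM in that of smallest effective size. On 29 July the effective size was between 9684106 and 24159573. The watered library of tree 9 from 7 May stood apart in earlier work on these data, and calls that change without it are given both ways. Levels are per library and not per length, since no row lengths were used, so the rows are not ranked against each other. In branch RNA, fewer cells of a type and less RNA per cell cannot be told apart. The branch label could not be checked against marker genes, because rows other than the authors' 97 short-named ones carry gene model IDs without names.

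In brief, none of the 5 rows passed the test in any contrast of arm or day. The row with the most uniform change was aamylase5, whose 6 libraries of 29 July lay between 4.32 and 4.83 log2 CPM against a median of 3.72 over the 18 earlier libraries, or 4.19 over the 6 earlier libraries of like effective size. Among 40 comparisons of ratios between rows, 3 had arms that did not overlap, no more than arbitrary labels would give, and none had an adjusted p under 0.05. The expected counts of aamylase3 and aamylase5 carried fractions that added up to whole sums. These results are taken in turn, starting with the levels of each row.

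The row aamylase1 was counted in all 24 libraries, with 11 to 366 counts and a median of 122.5. On 7 May its level was 2.52, 3.76 and 4.28 log2 CPM in watered trees 3, 9 and 11 and 2.58, 3.87 and 4.69 in dried trees 4, 8 and 12. On 23 May the watered trees stood at 2.92, 1.95 and 4.92 log2 CPM and the dried trees at 4.81, 3.49 and 3.05. The arms overlapped on both days, and trees of 1 arm differed from each other more than the arm means did. On 6 June the watered trees were at 3.78, 4.67 and 4.05 log2 CPM and the dried trees at 3.87, 4.69 and 3.87. On 29 July they were at 3.68, 2.69 and 3.02 and at 3.86, 3.56 and 3.07, respectively. Every tree was lower on 29 July than on 6 June, by 0.85 ± 0.73 log2 CPM (mean ± SD over 6 trees), although the difference was close to 0 in trees 3 and 4. The exact two-sided sign-flip test over trees gave p = 0.03125, the smallest that 6 trees allow, and 0.234 after Benjamini-Hochberg adjustment over 30 such tests (5 rows and 6 pairs of days). In the edgeR fit the same difference over both arms was -0.86 ± 0.47 (log2 ± SE, Benjamini-Hochberg adjusted p = 0.213).

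The row aamylase2 held 1 to 168 counts per library, with a median of 41.5. On 7 May the watered trees stood at 2.10, 3.92 and 2.06 log2 CPM and the dried trees at 1.98, 2.01 and 2.64. On 23 May the levels were 1.69, -0.24 and 2.69 in watered and 1.91, -0.47 and 2.37 in dried trees. Tree 9 gave the highest level of the row on 7 May, and trees 9 and 8 gave its lowest levels on 23 May. These lowest levels are 2 counts and 1 count, under the floor of 3 counts at 1.01 and 1.66 CPM in these libraries. On 6 June the watered trees were at 2.68, 1.56 and 1.46 log2 CPM and the dried trees at 0.46 (2 counts, also under the floor), 2.46 and 1.27. On 29 July they were at 2.01, 1.56 and 1.86 and at 1.35, 1.83 and 2.18. The arms overlapped on every day. All 6 trees were lower on 29 July than on 7 May, by 0.65 ± 0.86 log2 CPM (mean ± SD), and most of the mean came from tree 9. The edgeR fit gave -0.79 ± 0.50 (log2 ± SE, Benjamini-Hochberg adjusted p = 0.630) for that difference over both arms.

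The row aamylase3 was the sparsest, with 0 to 73 counts and a median of 25.5. On 7 May the watered trees stood at 1.17, -0.09 and 1.49 log2 CPM and the dried trees at 1.43, -0.41 and 1.72. On 23 May it had no count in watered tree 9 and in dried trees 8 and 12, while watered trees 3 and 11 stood at 1.52 and 1.67 and dried tree 4 at 1.07. The 3 libraries without a count had effective sizes of 2974681, 1811230 and 5810903, with floors of 3 counts at 1.01, 1.66 and 0.516 CPM. Dried tree 12, at the lowest of these floors, had 3.12 CPM on 7 May and 1.72 CPM on 6 June. A count of 0 does not show absence from the branch, and its reason was not tested. The counts of this row are not fully separate from those of aamylase5, as given below. On 6 June the watered trees were at 1.35, 0.97 and 0.43 log2 CPM and the dried trees at 0.98, 1.82 and 0.92. On 29 July the levels were 1.51, 1.18 and 1.95 in watered and 1.71, 1.67 and 1.57 in dried trees. The July libraries of the dried arm were the most alike of any group of this row, with an SD of 0.07 log2 CPM.

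The row aamylase4 held 28 to 1750 counts per library, with a median of 386.5. On 7 May the arms lay close together, with 4.93, 5.08 and 4.73 log2 CPM in watered and 4.88, 4.62 and 5.37 in dried trees. On 23 May watered trees 3 and 11 reached 6.74 and 6.00 log2 CPM while watered tree 9 stood at 3.26, and the dried trees lay between them at 5.28, 4.80 and 4.37. The highest and the lowest library of this row thus belonged to the same group. On 6 June the watered trees were at 5.13, 4.001 and 4.11 log2 CPM and the dried trees at 4.83, 6.01 and 5.38. On 29 July the levels were 5.42, 4.80 and 4.45 in watered and 5.41, 5.17 and 4.89 in dried trees. By then both arms lay within 1 log2 unit again.

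The row aamylase5 held 11 to 667 counts per library, with a median of 174.5. On 7 May the watered trees stood at 4.18, 2.13 and 4.29 log2 CPM and the dried trees at 4.21, 3.58 and 3.86. On 23 May the levels were 4.17, 3.16 and 4.60 in watered and 3.63, 3.26 and 2.46 in dried trees. The lowest value of the row was that of watered tree 9 on 7 May, and the dried trees of 23 May formed the lowest group. On 6 June the watered trees were at 4.40, 3.66 and 3.33 log2 CPM and the dried trees at 2.88, 4.04 and 3.79. On 29 July they stood at 4.83, 4.32 and 4.36 and at 4.60, 4.58 and 4.81. The July values of both arms were the highest group means, 4.66 ± 0.13 for dried and 4.51 ± 0.28 for watered trees (mean ± SD, n = 3).

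**Figure D1:**
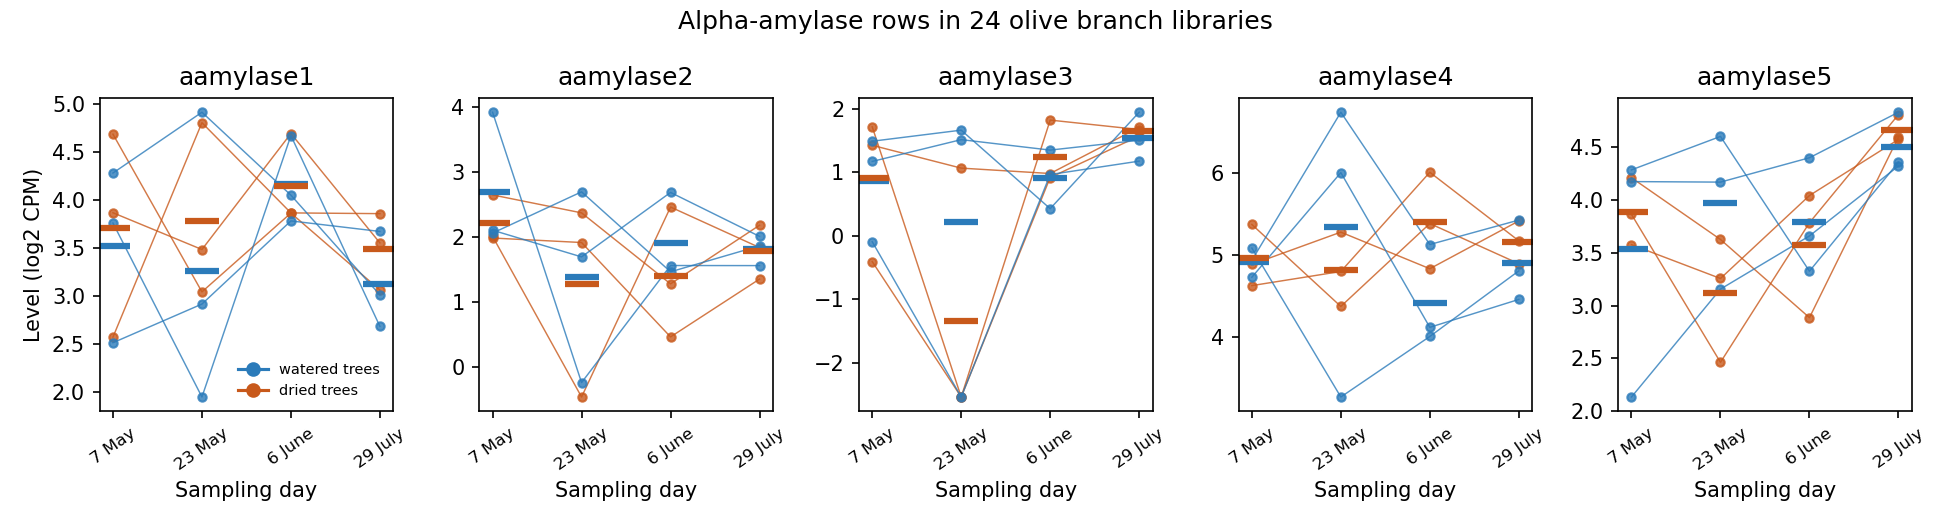
Level of each alpha-amylase row (log2 CPM, vertical axis, a scale of its own in each panel) on the 4 sampling days, with 1 point per library, thin lines joining the libraries of a tree and bars at the mean of 3 trees, in blue for watered and orange for dried trees. The July points of aamylase5 lie between 4.32 and 4.83, and aamylase3 drops to its lowest plotted level of -2.54, which is a count of 0, in 3 libraries of 23 May.

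Spread among libraries was moderate beside that of other rows. The SD of the level over the 24 libraries was 0.80, 0.93, 1.39, 0.71 and 0.72 log2 CPM for aamylase1 to aamylase5, against a median of 1.13 over all rows tested. The row aamylase3 was the exception on the high side, and its 3 libraries without a count lie far below the others. The range of the 8 group means was 1.04, 1.42, 2.99, 0.99 and 1.55 log2 CPM in the same order, with a median of 2.03 over all rows. When the 8 groups were ordered by level, no neighbouring pair differed by more than the pooled SD of the pair in any row. The widest such gap relative to its spread, 0.94 pooled SDs, lay between watered trees of 29 July and watered trees of 23 May in aamylase5.

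The first question of the design is whether drying altered the rows. None of the 5 rows was called between arms on any day, at an adjusted p under 0.05 in the edgeR quasi-likelihood test with Benjamini-Hochberg adjustment over 29107 rows, and none had an unadjusted p under 0.05 in these 20 tests. Over all rows, 0% were called on 7 May, 0% on 23 May, 0.103% on 6 June and 0% on 29 July, while the share with an unadjusted p under 0.05 was 3.4%, 11.2%, 24.3% and 0.141% on these days. DESeq2 called none of the 5 either, with 0.234%, 1.11%, 13.8% and 0.055% of all rows called in the same order of days. The fit with limma also called 0 of the 5 on each day, with 3.61% of all rows called on 6 June and 0% on the others. The arms overlapped in all 20 comparisons. Without the 7 May library of watered tree 9, the 7 May difference of aamylase2 was 0.17 in place of -0.70 and that of aamylase5 was -0.33 in place of 0.08, each smaller than its SE. Fitted differences, dried minus watered, ran from -1.37 to 0.98 on the log2 scale, and they come from counts, so that one near 0 can differ in sign from the difference of mean log2 CPM. A missed threshold does not show equal levels, and the 95% intervals give what remained possible. Over the 4 days they spanned -1.39 to 1.71 for aamylase1, -2.19 to 1.48 for aamylase2, -3.50 to 2.40 for aamylase3, -2.24 to 2.16 for aamylase4 and -1.97 to 1.15 for aamylase5.

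**Figure D2:**
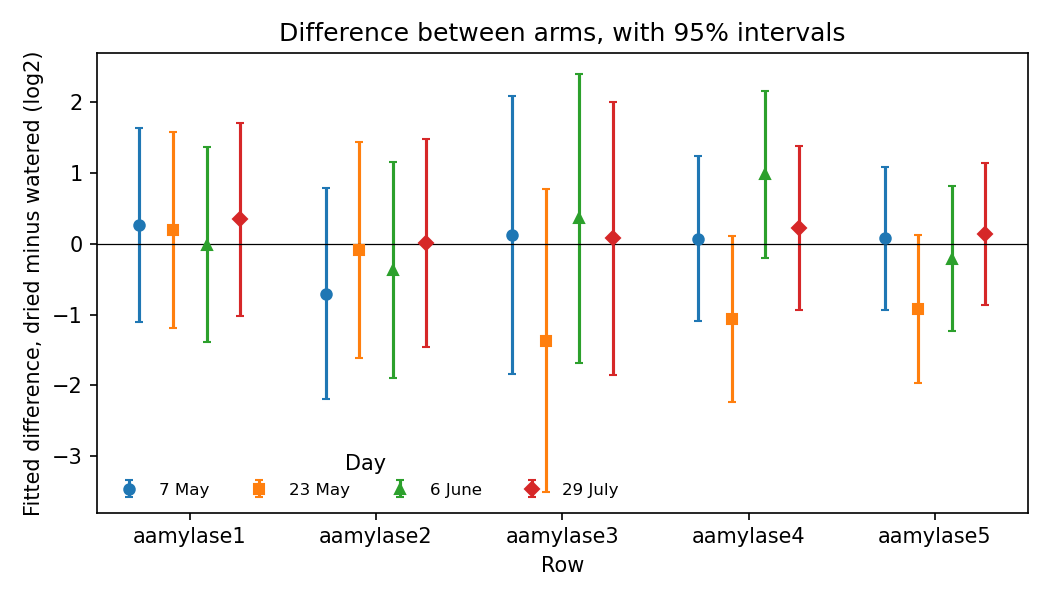
Fitted log2 difference between arms, dried minus watered (vertical axis), for each alpha-amylase row on each day, with points at the edgeR estimate and bars for the 95% interval. All 20 intervals include 0, and aamylase4 lies at -1.06 on 23 May and at 0.98 on 6 June.

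Among the fitted differences, the widest swing between arms belonged to aamylase4. Its fitted difference was -1.06 ± 0.57 on 23 May (log2 ± SE, 95% interval -2.24 to 0.12, adjusted p = 0.484 by edgeR with Benjamini-Hochberg adjustment). On 6 June it was 0.98 ± 0.57 (95% interval -0.19 to 2.16, adjusted p = 0.299 in the same test). Between these days the arms' changes differed, dried minus watered, by 2.04 ± 0.80 on the log2 scale, with an unadjusted p of 0.0185 and a Benjamini-Hochberg adjusted p of 0.461 in the edgeR fit, where 0% of all rows were called. In mean log2 CPM the swing of aamylase3 was wider, but it rests on libraries of 23 May without a count. Its dried and watered means were -1.34 and 0.21 on 23 May and 1.24 and 0.91 on 6 June. For aamylase4 these means were 4.81 and 5.34, then 5.41 and 4.41, and limma gave a difference of -0.53 on 23 May. Single libraries set the fitted value of aamylase4 on 23 May. Without watered tree 3 in the whole fit it was -0.20, without only that tree's library of 23 May it was -0.36, and without the low watered library of tree 9 it was -1.57 (unadjusted p = 0.00248, Benjamini-Hochberg adjusted p = 0.488).

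Ratios of the rows within a library use no scaling between libraries, and they were computed after the levels had been seen. The log2 ratio of counts plus 1 was taken, so that a ratio of few counts still varies with library size. For each of the 10 pairs of rows, this ratio was compared between arms on each day, which made 40 comparisons. The arms did not overlap in 3 of them, 1 on 23 May and 2 on 6 June. With 3 trees against 3, arbitrary labels leave the arms without overlap with a probability of 0.1. The 3 of 40 are thus no more than arbitrary labels would give. On these days 0% and 0.103% of all rows were called between arms, a share of calls and not of rows without overlap. On 6 June the log2 ratio of aamylase5 to aamylase4 was between -1.96 and -1.60 in the dried trees and between -0.78 and -0.34 in the watered trees, with means of -1.82 ± 0.19 and -0.62 ± 0.24 (SD, n = 3). On the same day the log2 ratio of aamylase4 to aamylase2 was 3.89 ± 0.30 in dried and 2.51 ± 0.10 in watered trees. It rests on few aamylase2 counts, 2, 30 and 17 in dried trees 4, 8 and 12 and 168, 14 and 11 in watered trees 3, 9 and 11. The ratio of aamylase3 to aamylase1 on 23 May was -4.58 ± 0.92 in dried and -2.76 ± 1.16 in watered trees, and it rests on libraries without an aamylase3 count. Exact two-sided permutation tests of 3 trees against 3 cannot go below 0.1, which each of these ratios gave, and adjustment over the 40 gave 0.923, so none of the 3 held as a difference between arms. On 29 July the arms overlapped in all 10 ratios.

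The second question is change over time. Over all 28 contrasts of arm and day computed for each row, which made 140 tests, edgeR called 0 at an adjusted p under 0.05 and 6 had an unadjusted p under 0.05. Over all rows, the share with an unadjusted p under 0.05 ranged from 0.141% to 34.4% among these contrasts. The 15 contrasts chosen in the design accounted for 75 of the tests, of which 0 had an unadjusted p under 0.05 and the lowest adjusted p was 0.155. The other 13 contrasts were added after the levels had been seen. Between 7 May and 23 May, the share of all rows called was 0.0206% in watered trees, 0.144% in dried trees and 8.66% over both arms, and it held none of the 5 alpha-amylases. From 7 May to 6 June in dried trees 1.09% of all rows were called, with an arm-by-day term that called 1.07%, and again none of the 5. From 23 May to 6 June the share was 0.00344% both in dried trees and over both arms, and in watered trees from 23 May to 29 July it was 0.00344% as well, without an alpha-amylase. The row aamylase4 in watered trees gave 1 of the 6 with an unadjusted p under 0.05, -1.41 ± 0.57 from 23 May to 6 June (log2 ± SE, Benjamini-Hochberg adjusted p = 0.634, with 0% of all rows called and 6.99% at an unadjusted p under 0.05). The other 5 were the arm-by-day term of aamylase4 given above, where 9.47% of all rows had an unadjusted p under 0.05, and 4 comparisons of aamylase5 with July. In those 4 the share of all rows was 28.5% for dried trees from 23 May, and 34.3%, 31.2% and 11.4% over both arms from 23 May, 6 June and 7 May.

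From 6 June to 29 July the level of aamylase5 was higher in each of the 6 trees. The differences were 0.43, 0.66 and 1.03 log2 CPM in watered trees 3, 9 and 11 and 1.71, 0.53 and 1.03 in dried trees 4, 8 and 12. Their mean was 0.90 ± 0.47 (SD), with p = 0.03125 in the exact two-sided sign-flip test and 0.234 after adjustment over the 30 tests. July was also above 7 May in 6 of 6 trees, by 0.88 ± 0.73 log2 CPM, and above 23 May in 5 of 6, by 1.04 ± 0.85. Watered tree 11 was the exception to the last count.

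**Figure D3:**
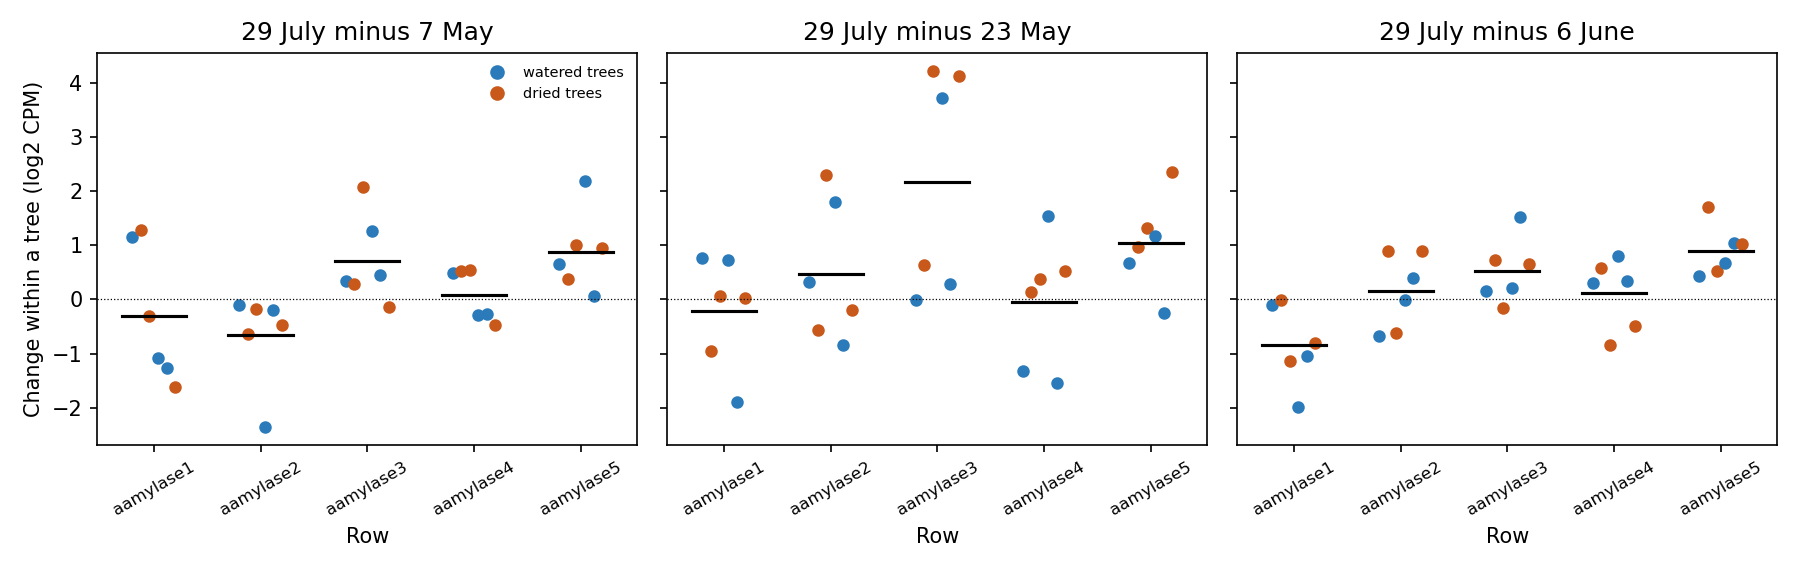
Change within a tree (difference in log2 CPM, vertical axis) from each earlier day to 29 July for the 5 alpha-amylase rows, with 1 point per tree in blue for watered and orange for dried trees, a bar at the mean of 6 trees and a dotted line at 0. All 6 trees lie above 0 for aamylase5 and below 0 for aamylase1 in the panel for 6 June.

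In the edgeR fit the July differences of aamylase5 did not reach the adjusted threshold. In dried trees, 29 July minus 6 June was 1.00 ± 0.50 (log2 ± SE, 95% interval -0.03 to 2.03, Benjamini-Hochberg adjusted p = 0.155), and 13.1% of all rows were called in that contrast. The dried libraries of both days did not overlap for this row, nor for aamylase1, which was lower in July. In watered trees the libraries of these days overlapped for aamylase5 and did not for aamylase1. For non-overlap, no share over all rows was computed. In dried trees, 29 July minus 23 May was 1.49 ± 0.50 (95% interval 0.44 to 2.54, adjusted p = 0.0766 in the same test), with 2.95% of all rows called. Over both arms, July minus 23 May was 0.96 ± 0.35 (adjusted p = 0.0590, 18.6% of rows called) and July minus 6 June was 0.83 ± 0.35 (adjusted p = 0.114, 8.62% called). July minus 7 May over both arms was 0.73 ± 0.35 (adjusted p = 0.423, 0% called). In watered trees alone, July minus 6 June was 0.65 ± 0.49 and July minus 23 May 0.43 ± 0.49, and the arms' July changes from 23 May differed by 1.07 ± 0.70 (adjusted p = 0.888, edgeR with Benjamini-Hochberg adjustment). Of all 140 tests, the lowest adjusted p was the 0.0590 of this row.

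Some other settings took aamylase5 past the threshold. DESeq2 called it in dried trees between 23 May and 29 July, at 1.58 (log2, adjusted p = 0.0113), where it called 19.5% of all rows. The fit with limma on the scaled values gave 1.61 (adjusted p = 0.0434) for the same contrast and called 10.2% of all rows. Without watered tree 9, edgeR gave 1.504 (Benjamini-Hochberg adjusted p = 0.0251) and called 13.6%. In the authors' deposited table, the comparison named after_3_drought_1, whose fold changes followed those of dried July minus 23 May across genes with r = 0.96, gives aamylase5 1.61 with an adjusted p of 0.00614 and aamylase3 a log2 change of 2.502 with an adjusted p of 0.0444. The authors' deposited table has 20.7% of its 30634 genes with a value under 0.05 in that comparison, and it gives aamylase5 1.04 with an adjusted p of 0.0662 for after_3_drought_2. Across the 21 comparisons of the authors' deposited table, no other alpha-amylase value was under 0.05. Some comparisons give no value for aamylase1, aamylase2 or aamylase3, and ctrl_1_drought_1 gives none for any of these rows. Without the watered library of tree 9 from 7 May, which is in neither group of the contrast, edgeR gave 1.51 with a Benjamini-Hochberg adjusted p of 0.0295 for dried July minus 23 May, and called 11.7% of all rows. Over both arms, July minus 23 May was called at 1.04 both with DESeq2 size factors in edgeR (adjusted p = 0.0367, 18.9% of all rows called) and in DESeq2 (adjusted p = 0.0103, 28.5%), and at 1.10 in limma (adjusted p = 0.0379, 16.4%). Without that 7 May library it was called at 0.97 in edgeR (Benjamini-Hochberg adjusted p = 0.0226, 24.5%). July minus 6 June over both arms was called in DESeq2 at 0.85 (adjusted p = 0.0486, 21.3%) and without that library in edgeR at 0.85 (Benjamini-Hochberg adjusted p = 0.0490, 18.3%). Over the 14 alternative settings, the dried July minus 23 May difference ranged from 1.15 without tree 12 to 1.87 without tree 4. The share of all rows called in that contrast ranged from 0%, which was the value without tree 4, 8, 11 or 12 and with the tree as a replicate block, to 19.5% in DESeq2.

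Effective library size, which holds the TMM factor as well as the total count, moved with the level of aamylase5. Across the 24 libraries, which share trees and days, the level correlated with log2 effective library size at r = 0.79 for aamylase5, 0.61 for aamylase3, 0.41 for aamylase2, 0.31 for aamylase4 and -0.18 for aamylase1. All 6 July libraries were among the 12 with an effective size of at least 9684106. Within those 12, the July libraries of aamylase5 ranged from 4.32 to 4.83 log2 CPM with a median of 4.59, and the 6 earlier ones from 3.86 to 4.40 with a median of 4.19. One earlier library, watered tree 3 on 6 June, lay within the July range, and r with log2 effective size was 0.29 over the 12. Over all 18 earlier libraries the median was 3.72 and 2 lay within the July range. The difference of medians was smaller among these libraries. Their 6 earlier members were 4 of 7 May and 1 each of watered trees on 23 May and 6 June. They held no dried library of 23 May or 6 June, so that effective size cannot be told apart from day and arm in them. The part of effective size in the July difference was not tested further.

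**Figure D4:**
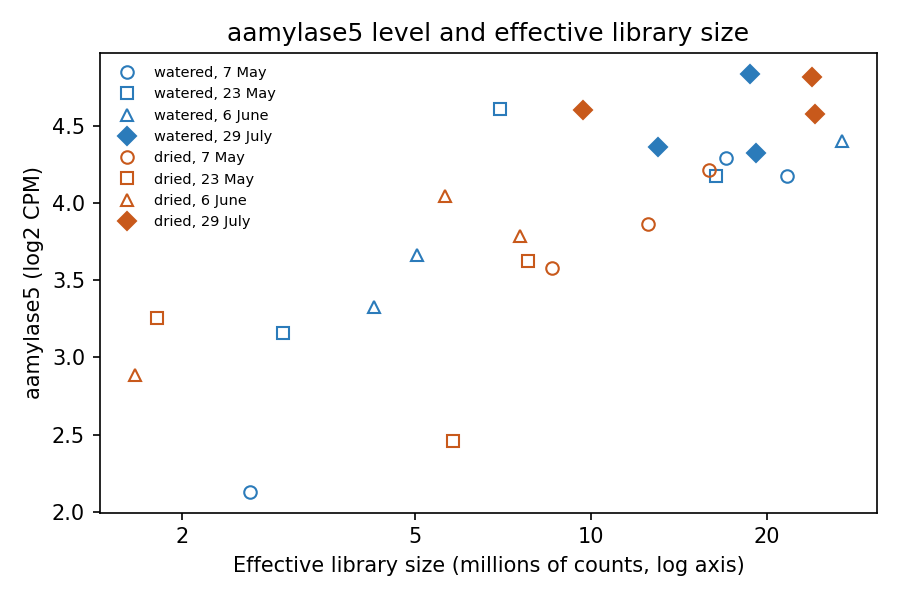
Level of aamylase5 (log2 CPM, vertical axis) against effective library size (in units of 1000000 counts, log axis) for the 24 libraries, in blue for watered and orange for dried trees, with filled diamonds for 29 July and open symbols for earlier days. All July libraries lie at 9684106 or above, where the earlier libraries reach from 3.86 to 4.40.

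Ratios within a library compare rows without scaling, and they move with either row of the pair. They were chosen after the levels had been seen. The log2 ratio of aamylase5 to aamylase4 in dried trees was -1.82 ± 0.19 on 6 June and -0.50 ± 0.38 on 29 July, while the watered trees had -0.62 ± 0.24 and -0.39 ± 0.26 (mean ± SD, n = 3). The dried trees of both days did not overlap in this ratio, and no share of non-overlap over all rows was computed. In dried trees 34.4% of all rows had an unadjusted p under 0.05 by edgeR between these days. Over all trees the difference was 0.77 ± 0.67, higher in 5 of 6 trees (exact two-sided sign-flip p = 0.0938). The log2 ratio of aamylase5 to aamylase1 was higher on 29 July than on 6 June in 6 of 6 trees, by 1.75 ± 0.70 (exact p = 0.03125, the smallest possible, and 0.1125 adjusted over 9 such tests). The level of aamylase1 itself was lower in July in these 6 trees, by 0.85 log2 CPM as given above, so that this ratio does not measure aamylase5 alone. Against 7 May the same ratio was higher in 4 of 6 trees, by 1.18 ± 1.65 (exact p = 0.1875), and against 23 May in 5 of 6, by 1.26 ± 0.92 (exact p = 0.0625). The ratio of aamylase4 to aamylase1 was higher than on 6 June in 6 of 6 trees, by 0.98 ± 0.98, and by 0.61 ± 0.45 over the other 5 trees without tree 9, which had 2.81. Against 7 May it differed by 0.40 ± 0.88 (4 of 6 trees higher, exact p = 0.25) and against 23 May by 0.18 ± 1.15 (5 of 6 higher, exact p = 0.75). For aamylase5 to aamylase4, July was higher in 5 of 6 trees against both 7 May, by 0.78 ± 0.96, and 23 May, by 1.08 ± 0.85 (exact p = 0.0625 each).

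The pair aamylase3 and aamylase5 cannot be read as fully separate measurements. Both had expected counts that were not whole in 17 of 24 libraries, and in all 17 the sum of the pair was whole within a tolerance of 0.015. Fractional values of this kind arise where reads are shared out between rows. The rows aamylase2 and aamylase4 were whole in every library, and aamylase1 was not whole in 2. From 0% to 20% of the summed count was given to aamylase3. Their levels correlated at r = 0.71 over the 24 libraries, the highest value among the 10 pairs of rows, while aamylase1 and aamylase5 had the lowest at 0.02. After the group means were removed, aamylase3 and aamylase5 had r = 0.68, below the 0.74 of aamylase3 and aamylase4, and the lowest was 0.10 for aamylase2 and aamylase5.

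**Figure D5:**
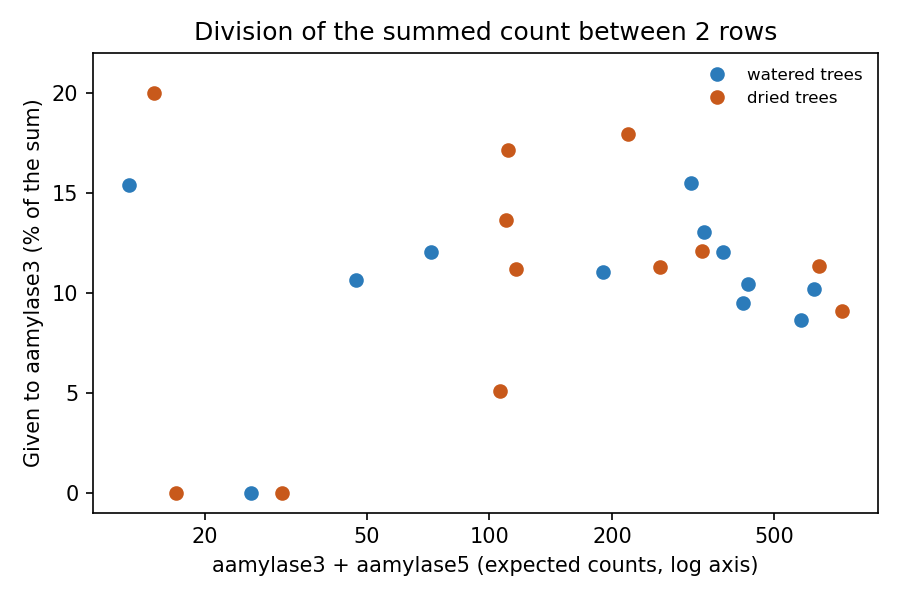
Share of the summed count of aamylase3 and aamylase5 that was given to aamylase3 (percent, vertical axis) against the sum (expected counts, log axis), with 1 point per library in blue for watered and orange for dried trees. The share is 0 in the 3 libraries without an aamylase3 count and reaches 20% at most.

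Summing the pair to 1 row, an alternative added after these fractions were seen, gave values close to those of aamylase5. At most 20% of the sum was given to aamylase3 in any library. The sum could thus hardly come out otherwise, and it adds no weight to the July difference. On 29 July the summed level was 4.82 ± 0.11 log2 CPM in the dried arm and 4.68 ± 0.26 in the watered arm (mean ± SD, n = 3), against 3.18 ± 0.69 and 4.10 ± 0.84 on 23 May. Dried July minus 23 May was 1.55 ± 0.52 for the sum (log2 ± SE, edgeR, Benjamini-Hochberg adjusted p = 0.0743). The sum was called there in DESeq2 at 1.64 (adjusted p = 0.0101). Without the 7 May library of watered tree 9 it was called in edgeR at 1.57 (Benjamini-Hochberg adjusted p = 0.0299). With the pair kept apart, these fits called 19.5% and 11.7% of all rows. Over both arms the same pair of days gave 0.99 ± 0.36 (adjusted p = 0.0560), and with the tree as a replicate block 1.08 with an adjusted p of 0.0464, so that the call changed with the block. It also changed in DESeq2, at 1.08 (adjusted p = 0.00919). Without the 7 May library of watered tree 9, edgeR gave 1.00 (Benjamini-Hochberg adjusted p = 0.0231). With the pair kept apart, these 2 fits called 28.5% and 24.5% of all rows. With the pair kept apart, the block fit called 14% of all rows in that contrast and neither row of the pair. Between arms on 23 May the sum differed by -0.97 ± 0.51 (adjusted p = 0.479).

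The rest of the starch breakdown machinery gives the scale of change around the alpha-amylases. A list of 26 short-named rows, holding beta-amylases and rows whose names read as starch phosphorylase, maltose exporter, disproportionating enzyme and other glucan-degrading or transport functions, was compiled by name with earlier results of these data known, and 25 of its rows were tested. None of the 25 was called between arms on any day. Between 6 June and 29 July in dried trees, where 13.1% of all rows were called, 5 of the 25 rose and 3 fell, with a median of 1.23 on the log2 scale, against 0 called and a median of 0.15 for the 5 alpha-amylases and a median of 0.20 over all rows. Of the 13 beta-amylases, 1 rose and 3 fell in that contrast.

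Among the called rows, bamylase3 fell by 5.05 ± 1.55, bamylase2 by 4.14 ± 1.22 and bamylase10 by 4.10 ± 1.07 in dried trees from 6 June to July (log2 ± SE, adjusted p = 0.0411, 0.0369 and 0.0281, edgeR with Benjamini-Hochberg adjustment). In the same contrast starchp3 rose by 3.35 ± 0.84 and bamylase12 by 2.16 ± 0.56 (adjusted p = 0.0271 and 0.0280). The row mex1, named for the plastid maltose exporter, also rose, but it had 3 counts in all in the dried libraries of 6 June and no fold is given. From 23 May to July in dried trees, starchp3 rose by 3.40 ± 0.84 and bamylase10 fell by 5.45 ± 1.14 (adjusted p = 0.0410 and 0.0406). The difference of aamylase5 over the same days, 1.49, was smaller than either. Not every called row of the list changed by more than aamylase5. Over both arms from 23 May to July, 4 of the 25 rows rose and 3 fell. The smallest of these folds was that of aglucan1, 0.92 ± 0.31 (adjusted p = 0.0431 in the same test). In that contrast aamylase5 had 0.96 ± 0.35 and was not called.

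The rows most like each alpha-amylase were taken as the highest Pearson r of log2 CPM over the 24 libraries, with the alpha-amylases themselves left out, among 74 short-named rows and 18139 rows in all with a mean of at least 1 log2 CPM. These are descriptions over libraries that share trees and days and differ in effective size. For aamylase5 they were bamylase8 (r = 0.89), aglucan1 (0.84) and starchp3 (0.82), and among gene model IDs Oeu032144.1 (0.92). For aamylase4 they were pgm1 (0.72), ugp1 (0.63) and sucsynthase3 (0.56), and Oeu028079.1 (0.91). The row aamylase3 was most like starchsyn7 (0.75), mex3 (0.66) and bamylase12 (0.65), and Oeu007925.1 (0.89). The row aamylase2 was most like starchsyn7 (0.69), ugp2 (0.61) and mex3 (0.51), and Oeu056035.1 (0.83). The short-named rows nearest to aamylase1 reached only 0.50 for hexokinase4, 0.44 for sucsynthase3 and 0.40 for invertase2, while Oeu037623.1 reached 0.84. Of these short-named rows, starchsyn7 and mex3 were named for both aamylase2 and aamylase3, and sucsynthase3 for both aamylase1 and aamylase4.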

How the data were processed

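Polyadenylated RNA of 24 branch libraries was sequenced. The tools listed in the submitters' processing notes are Bowtie2, RSEM, cutadapt, limma and DESeq2; for versions and the genome build, nothing is given in the sources used here. The authors deposited expected counts per row, which need not be whole and were rounded for testing. Their second deposited table holds a scaled signal (counts divided by 1 constant per library) for 31870 rows. The authors' deposited comparisons hold log2 fold changes and adjusted p-values.

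Groups were fitted together in edgeR 4.0.16 (R 4.3.3; quasi-likelihood, TMM, filterByExpr by group, 1 mean for each of 8 groups) with calls at p under 0.05 after Benjamini-Hochberg adjustment over 29107 rows. SE is the size of the log2 difference divided by the root of its F statistic, and 95% intervals use the t quantile. A prior count of 2 entered the log2 CPM. Alternatives used DESeq2 1.42.0, DESeq2 size factors in edgeR, no filter, limma 3.58.1 on log2(scaled value + 1), libraries of 1 day, left-out trees or libraries, and the tree as replicate block. The fit was also run on simulated data for 1 contrast, with 1 dispersion for all rows and no differences between trees. That setting is simpler than these data, and no result here rests on it. Members and lists were chosen with earlier results of these data known, and 13 of 28 contrasts were added after levels were seen. Named rows are all members, the 3 short-named rows and 1 ID most like each, and called rows of the starch breakdown list, at most 6 per contrast.

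Replicates are separate trees. The replicate number is the tree and pairs days within an arm; mean correlations of a tree's deviations between days ran from -0.03 to 0.18. No libraries were identical, the closest pair of a group differing by a chi-square of 13.7 per degree of freedom. Counting floors cover counting error only. All per-sample columns were used. The gene table of assembly O_europaea_v1 matched 0 of the 5 rows and 0 of 50566 gene model IDs.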

Additional observations from a re-analysis of the deposited data

How the results depend on the processing

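Differences and calls were recomputed over 28 contrasts, or over 24 with the replicate block and 4 with the libraries of 1 day alone. The count of alpha-amylases called stayed at 0 everywhere except in 3 July contrasts. For dried July minus 23 May it was 1 with DESeq2, 2 with limma, 1 without the 7 May library of watered tree 9, and 0 to 1 when trees were left out, the 1 coming without tree 9. For July minus 23 May over both arms it was 1 with DESeq2 size factors, 1 with DESeq2, 2 with limma and 1 without that library; for July minus 6 June over both arms it was 1 with DESeq2 and 1 without that library. The row called was aamylase5, joined by aamylase3 under limma. With the tree as replicate block, 0 alpha-amylases were called in every contrast that admits it, and aamylase5 in dried July minus 23 May was 1.51 (adjusted p = 0.0764); the block changed no call of a single row. No difference that changed sign was called. Sign changes were common among small differences: 189 of 1960 recomputed values had another sign, 120 of them with a tree left out, and 186 of the 189 concerned differences within 1 SE of 0. The other 3 came with a tree left out. Without tree 9, aamylase2 in watered trees was 0.17 for 23 May minus 7 May and 0.14 for 6 June minus 7 May, where other trees left out gave values down to -2.19 and -1.91. Without tree 11, aamylase1 was 0.14 for July minus 23 May over both arms, against values down to -0.87. Direction and side of the threshold were kept by 1759 values, and 12 passed it only under the alternative. DESeq2 size factors moved the median of all rows by at most 0.0854. With 3 trees per arm, intervals between arms were wide, above all for aamylase3. The floor of 3 counts reached 1.80 CPM in the library of smallest effective size. The causes were not tested.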
